A study of Homo sapiens with 20 samples.

Results

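The 37 genes described here fold, check and move proteins in the endoplasmic reticulum (ER), or sense and answer its stress. They were taken by symbol and not by a cutoff on measured values, but the list was chosen with earlier results of these data known. All 37 were found among the 21201 gene symbols measured. The RNA came from 5 established human cancer lines, treated for 24 h with 1 µM G007-LK, a small-molecule inhibitor of the tankyrases TNKS1 and TNKS2, or with 0.01% DMSO, the solvent control. The TNKSi-sensitive lines were COLO 320DM (colorectal adenocarcinoma), UO-31 (renal cell carcinoma), OVCAR-4 (high grade serous ovarian adenocarcinoma) and ABC-1 (lung adenocarcinoma), and RKO (colorectal adenocarcinoma) was the TNKSi-insensitive control line. Each line gave 2 G007-LK and 2 DMSO libraries from biological replicates, 20 libraries in all, so that a result for a tissue rests on 1 established line. ABC-1 and RKO were grown in EMEM and the other lines in RPMI-1640, so the medium was shared by the treated and control cells of a line but not by all lines.

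Proteins that enter the secretory pathway are threaded into the ER through the SEC61 translocon, given sugars, folded by chaperones and oxidized by protein disulfide isomerases. Those that do not fold are drawn back to the cytosol and destroyed (ER-associated degradation, ERAD), and those that do leave in vesicles coated with COPII. When unfolded proteins build up, 3 sensors in the ER membrane start the unfolded protein response: IRE1 (gene ERN1), which splices the XBP1 mRNA, ATF6, which is cut free to act as a transcription factor, and PERK (gene EIF2AK3), which slows translation and raises ATF4. XBP1 and ATF6 bind short elements in the promoters of chaperone and ERAD genes, and secretory tumor cells often run this program at a steady level.

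Gene levels are given as RPKM (reads scaled to transcript length and to the mapped reads of the library), and here each library was multiplied by 1 factor so that the median gene did not differ between the libraries of a line (rescaled RPKM). Without this step, the median of all genes tested was lower with G007-LK by a log2 fold change of -0.139 in ABC-1 cells and -0.106 in those of OVCAR-4, and by -0.04 or less in size in the other lines. All log2 fold changes are G007-LK over DMSO on the log2(RPKM + 0.5) scale, which understates the change of low genes, and are given with the standard error (SE) of the fit. A gene was called higher or lower at an adjusted p under 0.05 (limma, two-sided, Benjamini-Hochberg over all genes tested in the comparison). With 2 replicates a group, the p-values within a line or against RKO measure the spread between those replicates only. Groups of 2 libraries can also fail to overlap without a change, so overlap is given as a description and is no test. In the fit of 1 common effect over the sensitive lines, the spread also holds differences between the lines in their response, and libraries rather than lines are the replicates. Within a line the libraries ran from 0.855 to 1.11 times the depth of its DMSO replicate 1, but the total number of reads is unknown. Before rescaling, the median log2 difference of replicate 2 from replicate 1 was widest in UO-31 cells with G007-LK (-0.285) and next in COLO 320DM cells with DMSO (0.168). Of the labelled tissues, the colon factor CDX2 stood at 633 RPKM in COLO 320DM and 7.13 RPKM in RKO, the kidney factors PAX8 and PAX2 at 70.8 and 7.15 RPKM in UO-31, and PAX8 and SOX17 at 85.0 and 177 RPKM in OVCAR-4. The colon genes VIL1 and LGALS4 were near 0 in both colon lines, CUBN and LRP2 in UO-31, WT1 in OVCAR-4, and the lung genes NAPSA, SFTPB, SFTPC and SLC34A2 in ABC-1.

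The promoters of 5 members are shown because they hold the elements through which XBP1, ATF6 and ATF4 are known to act on this gene group. HSPA5 encodes BiP, the main Hsp70 chaperone of the ER, XBP1 a transcription factor of the response, SDF2L1 a cofactor of BiP, HYOU1 its nucleotide exchange factor, and HERPUD1 a scaffold of ERAD. Capitals mark matches to ERSE (CCAAT and CCACG with 9 bases between them), ERSE-II (ATTGG and CCACG with 1 base between them), UPRE (TGACGTGG) and CARE (TGATGNAA) on either strand. Each stretch begins 250 bases before the RefSeq transcription start (promoter table of GRCh38) and ends before any annotated transcript starts. The positions are those of an exact match of the stretch to GRCh37, chr9:128003662-128003872 (minus strand) for HSPA5, chr22:29196586-29196807 (minus strand) for XBP1, chr22:21996341-21996590 (plus strand) for SDF2L1, chr11:118927939-118928166 (minus strand) for HYOU1 and chr16:56965804-56966053 (plus strand) for HERPUD1, and each is written 5′ to 3′ on the strand of its gene.
HSPA5: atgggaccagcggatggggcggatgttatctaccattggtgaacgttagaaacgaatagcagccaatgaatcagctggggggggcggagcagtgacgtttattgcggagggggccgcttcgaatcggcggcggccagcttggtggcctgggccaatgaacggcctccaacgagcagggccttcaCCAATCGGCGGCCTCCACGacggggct
XBP1: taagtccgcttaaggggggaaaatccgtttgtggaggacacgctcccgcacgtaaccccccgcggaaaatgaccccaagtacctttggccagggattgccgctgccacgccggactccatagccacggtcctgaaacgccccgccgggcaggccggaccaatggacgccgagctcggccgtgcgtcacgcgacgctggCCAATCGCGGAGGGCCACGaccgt
SDF2L1: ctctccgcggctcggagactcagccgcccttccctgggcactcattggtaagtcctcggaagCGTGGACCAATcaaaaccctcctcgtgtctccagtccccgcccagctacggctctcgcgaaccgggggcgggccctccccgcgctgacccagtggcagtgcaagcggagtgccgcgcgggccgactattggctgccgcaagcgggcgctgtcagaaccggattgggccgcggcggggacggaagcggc
HYOU1: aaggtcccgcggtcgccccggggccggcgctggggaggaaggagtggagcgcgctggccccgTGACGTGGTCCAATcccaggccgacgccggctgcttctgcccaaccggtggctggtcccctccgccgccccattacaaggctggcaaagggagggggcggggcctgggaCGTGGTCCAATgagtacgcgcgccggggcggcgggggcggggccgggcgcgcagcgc
HERPUD1: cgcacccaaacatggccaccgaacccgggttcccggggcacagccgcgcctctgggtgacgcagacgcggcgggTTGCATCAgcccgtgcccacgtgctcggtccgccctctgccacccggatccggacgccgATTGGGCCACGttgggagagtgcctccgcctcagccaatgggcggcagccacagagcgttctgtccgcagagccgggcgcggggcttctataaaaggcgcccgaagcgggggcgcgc
In HYOU1 the UPRE overlaps the ERSE-II nearer to the 5′ end, so that both lie in the first run of capitals.

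Promoters of 300 bases, 250 before the start and 50 after it, were matched for 33 of the 37 members; PDIA3, DERL1, DERL3 and SEC24D had no match. ERSE was found in 6 of the 33 (18.2%), HSPA5, HSP90B1, CRELD2, CALR, CANX and XBP1, against 27 of the 35116 promoters of the table (0.0769%). ERSE-II was found in 3 members (9.09%), HYOU1, SDF2L1 and HERPUD1, against 19 promoters in all (0.0541%). The 9 members with either element were 9 of the 46 promoters that held one, and their positions are in the plot of motif matches. UPRE occurred in HYOU1 (3.03% of members) and in 0.729% of promoters, and CARE in HERPUD1 (3.03%) and in 3.62% of promoters. Of the shorter strings searched on both strands, CCAAT was in 26 members (78.8%) and 34.6% of promoters, CCACG in 23 (69.7%) and 38.1%, both of which lie within ERSE, and the E-box CACGTG in 5 (15.2%) and 7.26%. These are matches of letters within 1 window per gene and do not show that a factor binds there. The elements were searched because they are known to act on this gene group, so the contrast with all promoters is no test. Each member was searched in 1 promoter, while the 35116 are all promoters of the table. The G007-LK response of the 9 genes with an element is set against that of the other members further on.

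**Figure D1:**
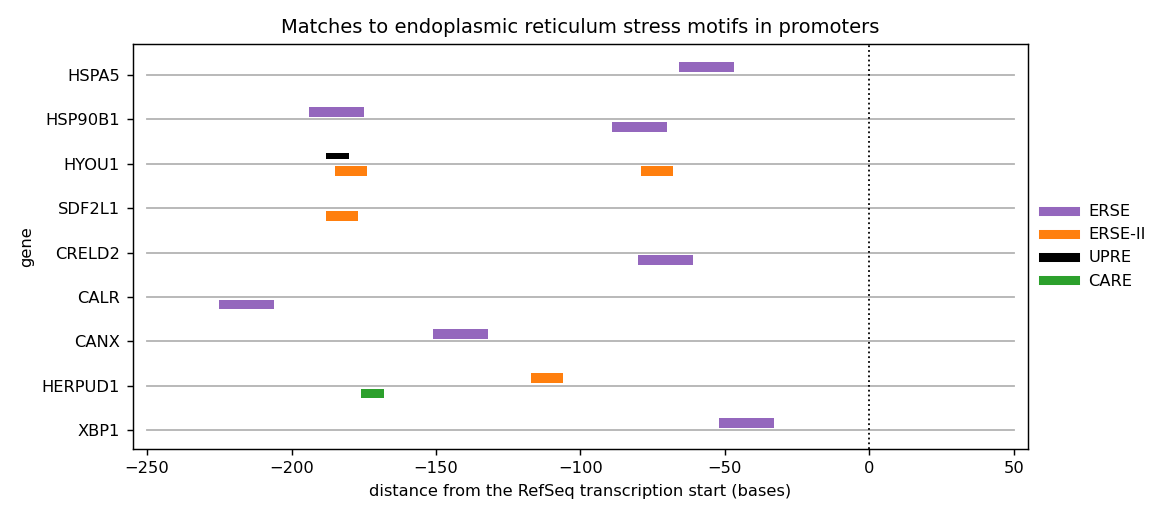
Matches to ERSE, ERSE-II, UPRE and CARE in the promoters of 9 members; the x axis is the distance in bases from the RefSeq transcription start (dotted line), bars above a gene's line are on the strand of the gene and bars below it on the other strand. HSP90B1 holds 2 matches to ERSE and HYOU1 2 to ERSE-II and 1 to UPRE, HERPUD1 1 to ERSE-II and 1 to CARE, and the other 6 genes 1 to ERSE or ERSE-II each.

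In COLO 320DM and ABC-1 more of these genes were higher with G007-LK than lower, in UO-31 those that changed were lower, and in OVCAR-4 small changes ran both ways. COLO 320DM had 17 members called higher and 3 lower of 37 tested, against 18.4% (higher) and 20.2% (lower) of all genes tested in the line. In ABC-1, 17 were higher and 5 lower of 35, against 31.4% and 32.4% of all genes. UO-31 had 0 members higher and 7 lower of 35, against 14.6% and 15.5% of all genes. The count of lower members there lies near the share in all genes, and that of higher members below it. In OVCAR-4, 7 were higher and 10 lower of 36, against 24.1% and 23% of all genes, which is close to the share in all genes. RKO had 1 member higher, EDEM1, and 1 lower, SSR3, of 36, against 1.65% and 1.06% of all genes.

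By line, the tested members' median log2 fold change was 0.14 (COLO 320DM), 0.12 (ABC-1), 0.02 (OVCAR-4), 0.01 (RKO) and -0.11 (UO-31), where the median of all genes lay between 0 and 0.004. The range of the members' log2 fold changes was widest in COLO 320DM (-0.38 to 0.79) and ABC-1 (-0.43 to 0.65), and narrower in UO-31 (-0.56 to 0.15), OVCAR-4 (-0.3 to 0.25) and RKO (-0.15 to 0.18). In bulk RNA, a change in the RNA per cell cannot be told apart from a change in which cells are in the dish. DERL3 and ERN1 were too low to be tested in some lines and are given below by their levels. The map of fold changes sets all 37 genes side by side.

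**Figure D2:**
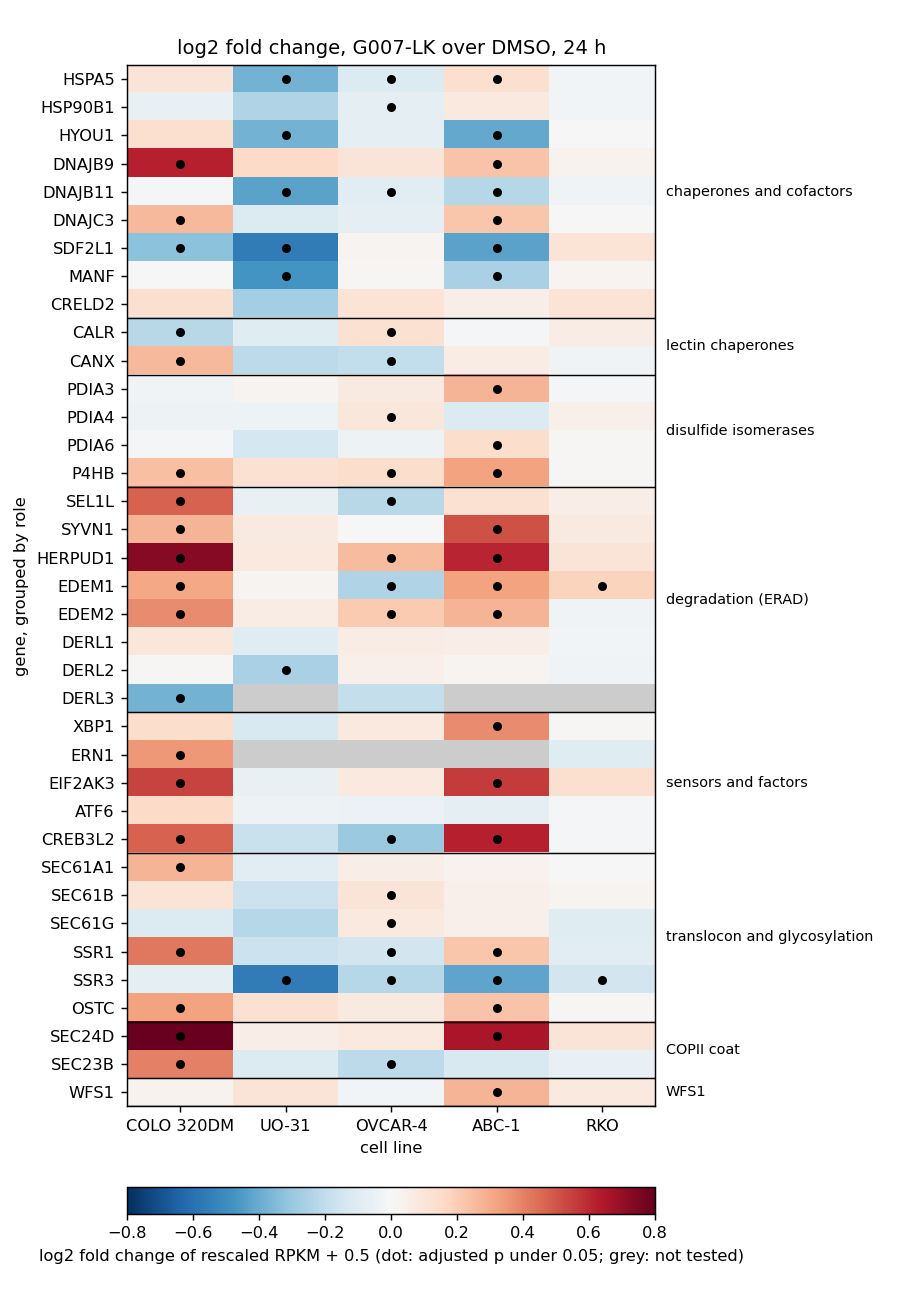
Log2 fold changes of the 37 genes (rows, grouped by role) in the 5 lines (columns), G007-LK over DMSO with 2 libraries each; red is higher and blue lower with G007-LK, dots mark an adjusted p under 0.05 (limma) and grey cells were not tested. SEC24D and HERPUD1 are the darkest red cells, both in COLO 320DM (0.79 and 0.73), and SSR3 is blue with a dot in RKO, ABC-1, OVCAR-4 and UO-31.

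These counts depended on the scale in the lines where the median gene had moved. With the RPKM as deposited, ABC-1 had 7 members higher and 9 lower and OVCAR-4 had 1 higher and 14 lower, against 16.6% and 41.2% of all genes in ABC-1 and 12.6% and 39% in OVCAR-4. COLO 320DM then had 12 higher and 2 lower (7.7% and 11.6% of all genes), UO-31 0 and 7 (4.79% and 8.63%) and RKO 1 and 1 (1.36% and 2.75%). Among called members, the sign itself differed between the scales for PDIA4, SEC61B and SEC61G in OVCAR-4 and for HSPA5 and PDIA6 in ABC-1, and for no called member in COLO 320DM, UO-31 or RKO. HSP90B1 in UO-31 and HYOU1, DNAJC3, PDIA6 and ATF6 in OVCAR-4 were called lower as deposited but not after rescaling. So were CALR, PDIA4, ATF6 and SEC23B in ABC-1.

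Single libraries also moved the counts, most in UO-31. The share of all genes called was not taken in those fits, so the moves are no result about these genes. With 1 library left out, the members' median log2 fold change lay between -0.12 and -0.09 in UO-31. It lay between 0.15 and 0.17 in COLO 320DM and between -0.02 and 0.04 in OVCAR-4. EDEM1 in RKO lost its call when any of the 4 RKO libraries was left out, and SSR3 when DMSO replicate 2 or G007-LK replicate 2 was.

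**Figure D3:**
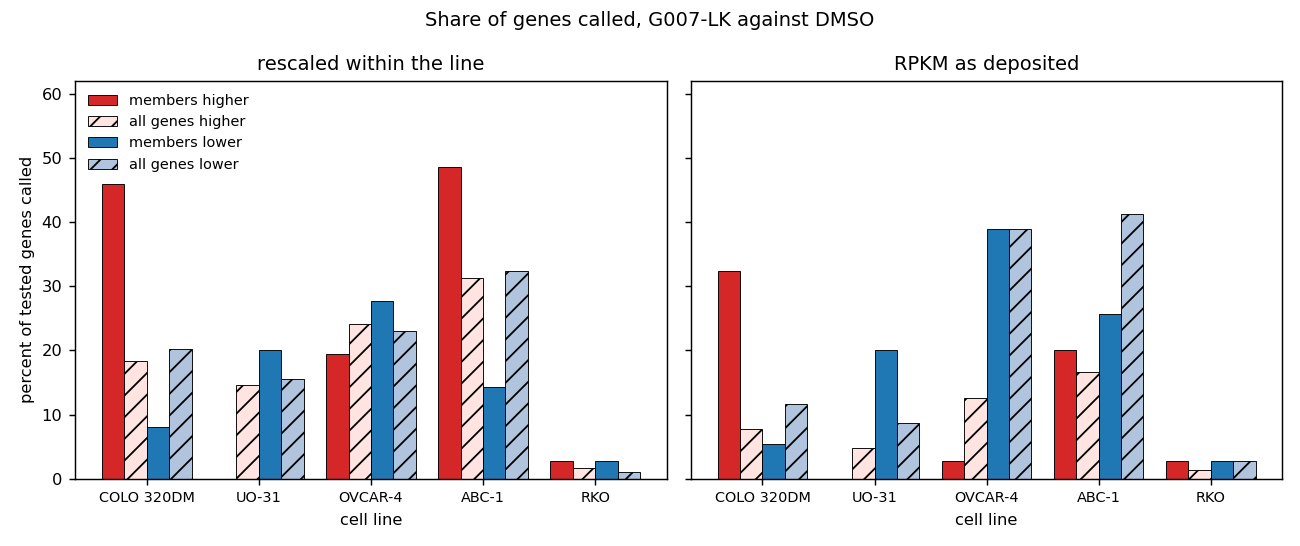
Percent of tested genes called higher or lower with G007-LK in each line, members in solid bars and all tested genes in hatched bars, after rescaling (left) and with the RPKM as deposited (right). In COLO 320DM the share of members called higher (17 of 37) stands above that of all genes (18.4%) on the left, and on the right 12 of 37 stand above 7.7%.

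The 9 chaperones of the ER lumen and their cofactors were mostly lower in UO-31 and mixed elsewhere. In UO-31, 5 of the 9 were lower and 0 higher (median log2 fold change -0.38), in ABC-1 4 were lower and 3 higher (0.05), in OVCAR-4 3 were lower (-0.07), in COLO 320DM 2 were higher and 1 lower (0.10), and in RKO 0 were called (0). Of all genes, 15.5% were lower in UO-31, 32.4% lower and 31.4% higher in ABC-1, 23% lower in OVCAR-4, and 18.4% higher and 20.2% lower in COLO 320DM, so that the ABC-1 counts lie near the share in all genes. With the RPKM as deposited, 0 were higher and 4 lower in ABC-1 (median -0.10), against 16.6% and 41.2% of all genes. OVCAR-4 then had 5 lower (-0.18), against 39% of all genes, and UO-31 6 lower (-0.42), against 8.63%. COLO 320DM then had 1 higher and 1 lower (0.08), against 7.7% and 11.6%.

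HSPA5 encodes BiP, which binds unfolded chains and also holds the 3 stress sensors inactive. In UO-31 it stood at 282 and 289 RPKM with G007-LK, against 377 and 368 RPKM with DMSO (log2 fold change -0.38 ± 0.09 (SE), limma adjusted p = 0.0146). In OVCAR-4 the values were 296 and 289 RPKM with G007-LK, against 317 and 313 RPKM with DMSO (log2 fold change -0.11 ± 0.03 (SE), limma adjusted p = 0.0108). Both treated libraries lay below both controls in these lines, and the gap was wider in UO-31 than in OVCAR-4. ABC-1 had 279 and 274 RPKM with G007-LK, against 252 and 253 RPKM with DMSO (log2 fold change 0.13 ± 0.05 (SE), limma adjusted p = 0.0425), where the order was the other way round, but with the RPKM as deposited the log2 fold change was -0.02 (limma adjusted p = 0.761). COLO 320DM had 309 and 306 RPKM with G007-LK, against 287 and 287 RPKM with DMSO (log2 fold change 0.10 ± 0.06 (SE), limma adjusted p = 0.228), and with quantile normalization the log2 fold change was 0.22 and the limma adjusted p 0.00633. RKO had 401 and 404 RPKM with G007-LK, against 406 and 412 RPKM with DMSO (log2 fold change -0.02 ± 0.02 (SE), limma adjusted p = 0.573). The treated libraries were above the controls in COLO 320DM and below them in RKO, by gaps that did not pass the test. The call in UO-31 was lost without DMSO replicate 1 (limma adjusted p = 0.28) or 2 (0.224), in OVCAR-4 without DMSO replicate 1 (0.095) or 2 (0.0641), and in ABC-1 without any 1 of its 4 libraries (0.111 to 0.182).

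HSP90B1 encodes GRP94, the Hsp90 chaperone of the ER. It was the member with the next highest level after CALR in UO-31, at 651 and 672 RPKM with G007-LK, against 801 and 763 RPKM with DMSO, and the groups did not overlap (log2 fold change -0.24 ± 0.10 (SE), limma adjusted p = 0.105). This missed the threshold, but HSP90B1 was called lower in UO-31 with the RPKM as deposited (log2 fold change -0.29, limma adjusted p = 0.00625). OVCAR-4 had 639 and 638 RPKM with G007-LK, against 675 and 667 RPKM with DMSO (log2 fold change -0.07 ± 0.02 (SE), limma adjusted p = 0.0331), a small fall whose call was lost without DMSO replicate 1 (limma adjusted p = 0.223) or 2 (0.128). The values were 828 and 836 RPKM with G007-LK, against 778 and 802 RPKM with DMSO in ABC-1 (log2 fold change 0.08 ± 0.06 (SE), limma adjusted p = 0.248). In COLO 320DM they were 437 and 419.5 RPKM with G007-LK, against 451 and 445 RPKM with DMSO (log2 fold change -0.06 ± 0.07 (SE), limma adjusted p = 0.469), and in RKO 329 and 321 RPKM with G007-LK, against 332 and 326 RPKM with DMSO (log2 fold change -0.02 ± 0.02 (SE), limma adjusted p = 0.73). The groups overlapped in RKO only.

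Cofactors of BiP gave the widest falls among the chaperones. SDF2L1 was at 17.3 and 20.7 RPKM with G007-LK, against 28.3 and 28.1 RPKM with DMSO in UO-31 (log2 fold change -0.56 ± 0.10 (SE), limma adjusted p = 0.00506). In ABC-1 it was at 83.8 and 96.1 RPKM with G007-LK, against 133 and 111 RPKM with DMSO (log2 fold change -0.43 ± 0.09 (SE), limma adjusted p = 0.00213). It was also lower in COLO 320DM, at 55.7 and 60.5 RPKM with G007-LK, against 80.6 and 65.9 RPKM with DMSO (log2 fold change -0.33 ± 0.09 (SE), limma adjusted p = 0.0231), so that both treated libraries were the lowest in 3 of the 4 sensitive lines. OVCAR-4 and RKO, where the groups overlapped, had log2 fold changes of 0.02 and 0.11. MANF, an ER protein that binds BiP and is partly secreted, stood at 94.1 and 109 RPKM with G007-LK, against 142 and 141 RPKM with DMSO in UO-31 (log2 fold change -0.48 ± 0.09 (SE), limma adjusted p = 0.00827). HYOU1, the exchange factor of BiP, stood there at 94.2 and 92.97 RPKM with G007-LK, against 123 and 119.7 RPKM with DMSO (log2 fold change -0.38 ± 0.07 (SE), limma adjusted p = 0.00918). DNAJB11, a J-domain protein that brings unfolded chains to BiP, stood there at 58.7 and 61.2 RPKM with G007-LK, against 80.1 and 81.8 RPKM with DMSO (log2 fold change -0.43 ± 0.07 (SE), limma adjusted p = 0.00514). Each of these 3 genes lost its call in UO-31 when DMSO replicate 1 or 2 was left out (limma adjusted p between 0.0549 and 0.199), while SDF2L1 and SSR3 kept theirs. MANF, HYOU1 and DNAJB11 were also lower in ABC-1 (log2 fold changes -0.26, -0.41 and -0.23), and DNAJB11 in OVCAR-4 (-0.09).

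DNAJB9, another J-domain cofactor, which also holds IRE1 back, went the other way. COLO 320DM had 5.72 and 5.71 RPKM with G007-LK, against 3.83 and 3.27 RPKM with DMSO (log2 fold change 0.62 ± 0.09 (SE), limma adjusted p = 0.00139), with both treated libraries well above the controls. It was also higher in ABC-1 (log2 fold change 0.23), where the call was lost with the RPKM as deposited, and was not called in UO-31, OVCAR-4 or RKO. DNAJC3, also a J-domain protein, was higher in COLO 320DM and ABC-1 (0.26 and 0.22), in neither line with the RPKM as deposited. CRELD2, an ER protein induced by stress in many cells, was called in no line.

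**Figure D4:**
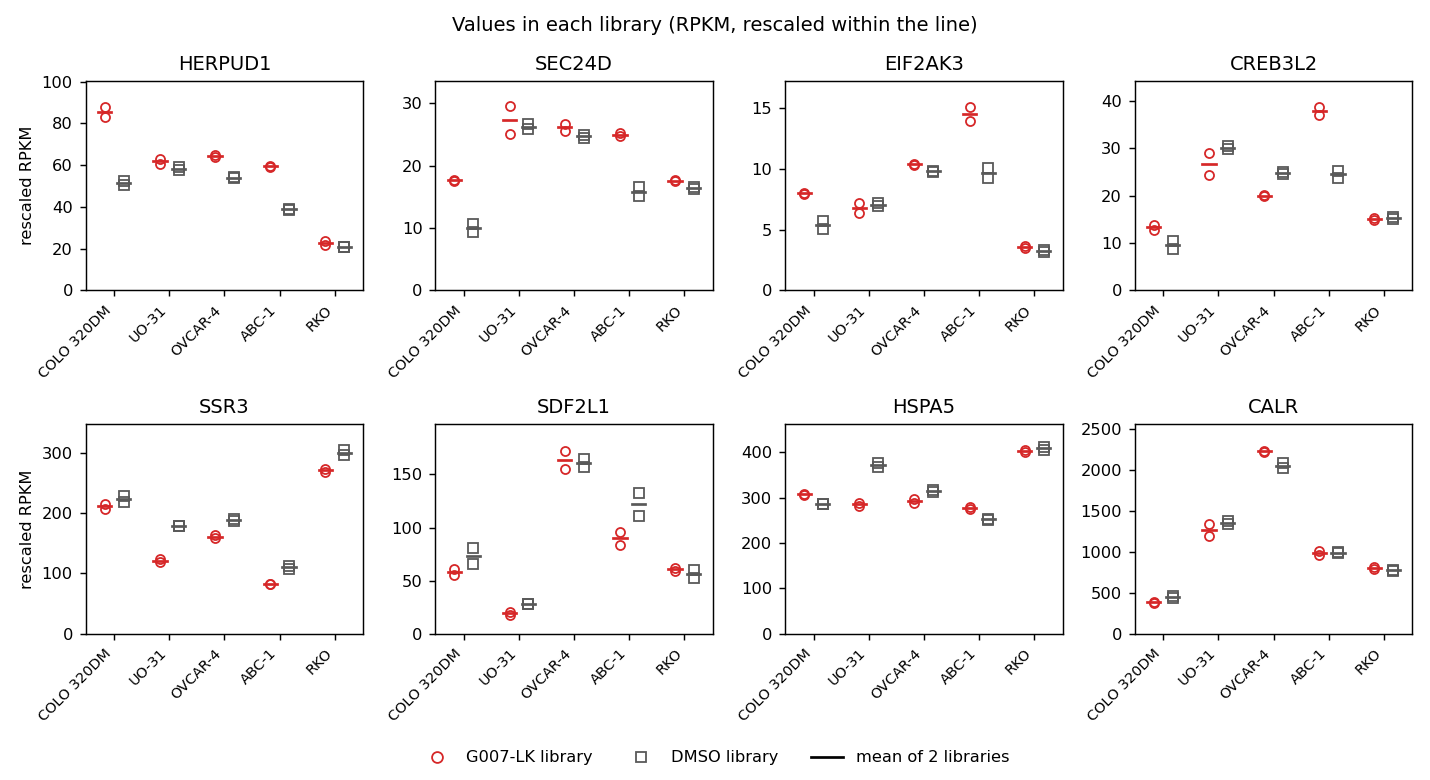
Rescaled RPKM of 8 members in every library, 5 lines on the x axis of each panel, with G007-LK libraries as red circles left of DMSO libraries as grey squares and bars for the mean of 2 libraries. HERPUD1 is higher with G007-LK in ABC-1, COLO 320DM and OVCAR-4, while SSR3 is lower in RKO, ABC-1, OVCAR-4 and UO-31.

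CALR encodes calreticulin, which holds glycoproteins for folding and stores calcium, and had the highest mean DMSO level of the 37 genes in every line but COLO 320DM, where HSP90B1 averaged 448 RPKM and CALR 445 RPKM. In COLO 320DM it stood at 375 and 387 RPKM with G007-LK, against 457 and 433 RPKM with DMSO (log2 fold change -0.22 ± 0.07 (SE), limma adjusted p = 0.0277). OVCAR-4 had 2235 and 2227 RPKM with G007-LK, against 2082 and 2024 RPKM with DMSO (log2 fold change 0.12 ± 0.02 (SE), limma adjusted p = 0.00145). The groups did not overlap in either line, and the directions were opposite. In COLO 320DM it lost the call when G007-LK replicate 1 or 2 was left out (limma adjusted p = 0.346 and 0.206), and in OVCAR-4 the log2 fold change was 0.01 with the RPKM as deposited (limma adjusted p = 0.848). UO-31 had 1192 and 1345 RPKM with G007-LK, against 1376 and 1339 RPKM with DMSO (log2 fold change -0.10 ± 0.11 (SE), limma adjusted p = 0.545), ABC-1 959.8 and 1006 RPKM with G007-LK, against 994 and 988 RPKM with DMSO (log2 fold change -0.01 ± 0.06 (SE), limma adjusted p = 0.857) and RKO 792 and 814 RPKM with G007-LK, against 768 and 776 RPKM with DMSO (log2 fold change 0.06 ± 0.02 (SE), limma adjusted p = 0.148). In ABC-1 CALR was called lower with the RPKM as deposited (-0.17, limma adjusted p = 0.000304). CANX, the membrane-bound relative of calreticulin, was higher in COLO 320DM (log2 fold change 0.26, not called with the RPKM as deposited) and lower in OVCAR-4 (-0.20).

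P4HB, the protein disulfide isomerase that is also a subunit of the collagen hydroxylase, was higher in 3 sensitive lines. COLO 320DM had 386 and 411 RPKM with G007-LK, against 344 and 332 RPKM with DMSO (log2 fold change 0.24 ± 0.07 (SE), limma adjusted p = 0.0226). ABC-1 had 844 and 887 RPKM with G007-LK, against 709 and 680.1 RPKM with DMSO (log2 fold change 0.32 ± 0.06 (SE), limma adjusted p = 0.000249). OVCAR-4 had 1038 and 1054 RPKM with G007-LK, against 953 and 948 RPKM with DMSO (log2 fold change 0.14 ± 0.02 (SE), limma adjusted p = 0.00086). Both treated libraries were above both controls in these lines, and in UO-31 too, where the difference did not pass (log2 fold change 0.12). In OVCAR-4 the log2 fold change was 0.02 with the RPKM as deposited. Of the other isomerases, PDIA3 and PDIA6 were higher in ABC-1 (0.27 and 0.14) and PDIA4 in OVCAR-4 (0.09), none of them with the RPKM as deposited, and none of the 4 was called in UO-31 or RKO. On the deposited scale PDIA4 was called lower in ABC-1 (-0.26, limma adjusted p = 0.000123) and PDIA6 lower in OVCAR-4 (-0.15, limma adjusted p = 0.0023).

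The 8 genes of ER-associated degradation had 5 called higher and 1 lower in COLO 320DM (median log2 fold change 0.29), 4 of 7 tested higher in ABC-1 (0.27), 2 higher and 2 lower in OVCAR-4 (0.02), 1 of 7 lower in UO-31 (0.02) and 1 of 7 higher in RKO (0.05). The shares of all genes called higher were 18.4% in COLO 320DM and 31.4% in ABC-1, and the OVCAR-4 counts lie near the 24.1% higher and 23% lower of all genes there. With the RPKM as deposited, 3 were higher in COLO 320DM (median 0.27) and 2 in ABC-1 (0.12), against 7.7% and 16.6% of all genes. OVCAR-4 then had 1 higher and 2 lower (-0.09), against 12.6% and 39% of all genes. HERPUD1, the scaffold that gathers the ERAD ligase, gave the widest rise of the role. In COLO 320DM it reached 82.8 and 87.8 RPKM with G007-LK, against 52.2 and 50.4 RPKM with DMSO (log2 fold change 0.73 ± 0.06 (SE), limma adjusted p = 6.82e-05). ABC-1 had 59.4 and 59.3 RPKM with G007-LK, against 38.4 and 39.1 RPKM with DMSO (log2 fold change 0.61 ± 0.05 (SE), limma adjusted p = 3.24e-07). OVCAR-4 had 63.8 and 64.8 RPKM with G007-LK, against 53.9 and 54.1 RPKM with DMSO (log2 fold change 0.25 ± 0.04 (SE), limma adjusted p = 0.000398). In each of these lines both treated libraries lay above both controls, and the calls held with the RPKM as deposited and with any 1 library left out. The log2 fold change was 0.08 in UO-31 and 0.10 in RKO, neither called.

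SYVN1 encodes HRD1, the ubiquitin ligase that HERPUD1 serves, and SEL1L its partner. SYVN1 was at 25.5 and 25.6 RPKM with G007-LK, against 17.9 and 17.5 RPKM with DMSO in ABC-1 (log2 fold change 0.51 ± 0.06 (SE), limma adjusted p = 3.46e-06), and was also higher in COLO 320DM (log2 fold change 0.27, not called with the RPKM as deposited). SEL1L was at 11.8 and 11.5 RPKM with G007-LK, against 7.43 and 9.15 RPKM with DMSO in COLO 320DM (log2 fold change 0.47 ± 0.10 (SE), limma adjusted p = 0.00557). In OVCAR-4 it was at 23.2 and 21.8 RPKM with G007-LK, against 25.9 and 26.5 RPKM with DMSO (log2 fold change -0.22 ± 0.05 (SE), limma adjusted p = 0.00602). SEL1L was thus higher in the colon line and lower in the ovarian line, and the groups did not overlap in either. EDEM1 and EDEM2 mark misfolded glycoproteins for degradation by trimming their mannose. EDEM1 was at 12.9 and 12.3 RPKM with G007-LK, against 15.1 and 14.8 RPKM with DMSO in OVCAR-4 (log2 fold change -0.24 ± 0.06 (SE), limma adjusted p = 0.00578). In RKO it was at 19.6 and 19.8 RPKM with G007-LK, against 17.2 and 17.4 RPKM with DMSO (log2 fold change 0.18 ± 0.03 (SE), limma adjusted p = 0.0202). EDEM1 was also higher in COLO 320DM and ABC-1 (0.31 and 0.32), in neither with the RPKM as deposited. EDEM2 was higher in COLO 320DM, ABC-1 and OVCAR-4 (0.38, 0.27 and 0.21), with the RPKM as deposited in COLO 320DM only.

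The derlins are membrane proteins of the exit channel. DERL1 was called in no line and DERL2 in UO-31 only (log2 fold change -0.26, lost with the RPKM as deposited). DERL3 is a low gene here. COLO 320DM had 1.06 and 0.992 RPKM with G007-LK, against 1.53 and 1.44 RPKM with DMSO (log2 fold change -0.38 ± 0.11 (SE), limma adjusted p = 0.0224), a call lost with the RPKM as deposited (limma adjusted p = 0.0642), and OVCAR-4 had 2.39 and 2.03 RPKM with G007-LK, against 2.69 and 2.48 RPKM with DMSO (log2 fold change -0.19 ± 0.12 (SE), limma adjusted p = 0.215). It was not tested in RKO (0.340 to 0.475 RPKM over its 4 libraries) and was at or near 0 in UO-31 (at most 0.0423 RPKM) and ABC-1 (at most 0.0242 RPKM).

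EIF2AK3, the sensor kinase PERK, stood at 8.06 and 7.93 RPKM with G007-LK, against 5.06 and 5.69 RPKM with DMSO in COLO 320DM (log2 fold change 0.54 ± 0.08 (SE), limma adjusted p = 0.00159). In ABC-1 it stood at 15.1 and 14.00 RPKM with G007-LK, against 9.28 and 10.1 RPKM with DMSO (log2 fold change 0.56 ± 0.07 (SE), limma adjusted p = 8.7e-06). Both treated libraries were above both controls in these lines, on both scales. The other lines had 7.17 and 6.38 RPKM with G007-LK, against 7.20 and 6.96 RPKM with DMSO in UO-31 (log2 fold change -0.06 ± 0.10 (SE), limma adjusted p = 0.679), 10.4 and 10.3 RPKM with G007-LK, against 9.76 and 9.87 RPKM with DMSO in OVCAR-4 (log2 fold change 0.08 ± 0.06 (SE), limma adjusted p = 0.301) and 3.49 and 3.69 RPKM with G007-LK, against 3.13 and 3.34 RPKM with DMSO in RKO (log2 fold change 0.13 ± 0.06 (SE), limma adjusted p = 0.33).

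ERN1, the sensor IRE1, was tested in the colon lines. COLO 320DM had 4.80 and 4.57 RPKM with G007-LK, against 3.35 and 3.78 RPKM with DMSO (log2 fold change 0.35 ± 0.09 (SE), limma adjusted p = 0.015). The call was lost with the RPKM as deposited (limma adjusted p = 0.138) and without G007-LK replicate 1 (0.109). RKO had 1.64 and 1.60 RPKM with G007-LK, against 1.80 and 1.73 RPKM with DMSO (log2 fold change -0.10 ± 0.08 (SE), limma adjusted p = 0.566). Below the filter of 1 RPKM, the values were 0.892 and 0.951 RPKM with G007-LK, against 0.522 and 0.515 RPKM with DMSO in ABC-1, 0.744 and 0.857 RPKM with G007-LK, against 0.944 and 1.02 RPKM with DMSO in OVCAR-4 and 1.39 and 0.840 RPKM with G007-LK, against 0.783 and 0.748 RPKM with DMSO in UO-31, with no test. ATF6, the remaining sensor, was called in no line. It had 13.8 and 13.99 RPKM with G007-LK, against 11.9 and 13.02 RPKM with DMSO in COLO 320DM (log2 fold change 0.15 ± 0.07 (SE), limma adjusted p = 0.115), 12.4 and 11.1 RPKM with G007-LK, against 12.3 and 11.9 RPKM with DMSO in UO-31 (log2 fold change -0.04 ± 0.09 (SE), limma adjusted p = 0.737) and 14.6 and 13.97 RPKM with G007-LK, against 14.97 and 14.6 RPKM with DMSO in OVCAR-4 (log2 fold change -0.05 ± 0.06 (SE), limma adjusted p = 0.51). ABC-1 had 15.1 and 14.2 RPKM with G007-LK, against 14.8 and 16.1 RPKM with DMSO (log2 fold change -0.08 ± 0.07 (SE), limma adjusted p = 0.321) and RKO 13.8 and 13.5 RPKM with G007-LK, against 13.7 and 13.9 RPKM with DMSO (log2 fold change -0.01 ± 0.04 (SE), limma adjusted p = 0.883). The ATF6 groups overlapped in every line but COLO 320DM, and with the RPKM as deposited ATF6 was called lower in OVCAR-4 (-0.16, limma adjusted p = 0.0412) and ABC-1 (-0.23, limma adjusted p = 0.0361).

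XBP1, whose mRNA IRE1 splices, was called in ABC-1 and in no other line. ABC-1 had 124 and 129 RPKM with G007-LK, against 96.8 and 97.02 RPKM with DMSO (log2 fold change 0.38 ± 0.05 (SE), limma adjusted p = 2.69e-05), called on both scales and with any 1 library left out. COLO 320DM had 108 and 106 RPKM with G007-LK, against 101 and 93.1 RPKM with DMSO (log2 fold change 0.14 ± 0.06 (SE), limma adjusted p = 0.109), which passed with quantile normalization (0.30, limma adjusted p = 0.00163). The values were 159 and 152 RPKM with G007-LK, against 148 and 145 RPKM with DMSO in OVCAR-4 (log2 fold change 0.08 ± 0.03 (SE), limma adjusted p = 0.0651). UO-31 had 38.9 and 39.5 RPKM with G007-LK, against 42.3 and 43.04 RPKM with DMSO (log2 fold change -0.12 ± 0.07 (SE), limma adjusted p = 0.23) and RKO 28.5 and 29.6 RPKM with G007-LK, against 29.5 and 28.1 RPKM with DMSO (log2 fold change 0.01 ± 0.04 (SE), limma adjusted p = 0.9). RPKM per gene does not separate spliced from unspliced XBP1 mRNA.

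CREB3L2, a membrane-held transcription factor of the secretory pathway that is cut like ATF6, moved in opposite directions. ABC-1 had 38.7 and 37.03 RPKM with G007-LK, against 23.7 and 25.3 RPKM with DMSO (log2 fold change 0.62 ± 0.06 (SE), limma adjusted p = 6.43e-07). COLO 320DM had 13.8 and 12.8 RPKM with G007-LK, against 8.67 and 10.4 RPKM with DMSO (log2 fold change 0.47 ± 0.09 (SE), limma adjusted p = 0.00492). OVCAR-4 had 20.03 and 19.9 RPKM with G007-LK, against 24.5 and 25.01 RPKM with DMSO (log2 fold change -0.30 ± 0.05 (SE), limma adjusted p = 0.000592). CREB3L2 was thus higher in ABC-1 and COLO 320DM and lower in OVCAR-4, with no overlap of the groups and the same calls with the RPKM as deposited. UO-31 and RKO had log2 fold changes of -0.18 and -0.01, neither called.

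SSR3 encodes the gamma subunit of the translocon-associated protein complex, and was lower in more lines than any other member. UO-31 had 124 and 119 RPKM with G007-LK, against 179 and 179 RPKM with DMSO (log2 fold change -0.56 ± 0.08 (SE), limma adjusted p = 0.0023). ABC-1 had 81.7 and 81.6 RPKM with G007-LK, against 108 and 112 RPKM with DMSO (log2 fold change -0.42 ± 0.05 (SE), limma adjusted p = 1.08e-05). OVCAR-4 had 163 and 158 RPKM with G007-LK, against 187 and 191 RPKM with DMSO (log2 fold change -0.23 ± 0.03 (SE), limma adjusted p = 0.000262). RKO, the insensitive line, had 273 and 268 RPKM with G007-LK, against 296 and 305 RPKM with DMSO (log2 fold change -0.15 ± 0.02 (SE), limma adjusted p = 0.00614). In COLO 320DM the treated libraries were also the lower ones, at 216 and 207 RPKM with G007-LK, against 219 and 228 RPKM with DMSO, without passing the test (log2 fold change -0.08 ± 0.06 (SE), limma adjusted p = 0.326). The alpha subunit SSR1 did not follow it, being higher in COLO 320DM and ABC-1 (log2 fold changes 0.42 and 0.22) and lower in OVCAR-4 (-0.15). OSTC, an accessory subunit of the oligosaccharyltransferase, was higher in COLO 320DM and ABC-1 (0.32 and 0.23). The calls of SSR1 and OSTC in ABC-1 were lost with the RPKM as deposited. Of the channel itself, SEC61A1 was higher in COLO 320DM (0.27), SEC61B and SEC61G were called higher in OVCAR-4 (0.10 and 0.08, but -0.01 and -0.04 with the RPKM as deposited), and no SEC61 gene was called in UO-31, ABC-1 or RKO.

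SEC24D, a cargo-binding subunit of the coat, gave the largest log2 fold change of any member. COLO 320DM had 17.8 and 17.5 RPKM with G007-LK, against 9.33 and 10.7 RPKM with DMSO (log2 fold change 0.79 ± 0.08 (SE), limma adjusted p = 0.000166). ABC-1 had 25.3 and 24.7 RPKM with G007-LK, against 15.1 and 16.5 RPKM with DMSO (log2 fold change 0.65 ± 0.06 (SE), limma adjusted p = 8.33e-07). The treated libraries stood far above the controls in both lines, on both scales, while UO-31, OVCAR-4 and RKO had log2 fold changes of 0.05, 0.08 and 0.10, none called. SEC23B, its partner in the inner coat, was at 39.97 and 38.9 RPKM with G007-LK, against 45.7 and 45.8 RPKM with DMSO in OVCAR-4 (log2 fold change -0.21 ± 0.04 (SE), limma adjusted p = 0.00192) and was higher in COLO 320DM (0.40). WFS1, wolframin of the ER membrane, was higher in ABC-1 (0.27, but 0.12 and not called with the RPKM as deposited).

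Over the sensitive lines, no member was called in the same direction in all 4. P4HB, HERPUD1 and EDEM2 were called higher in 3, DNAJB11, SDF2L1 and SSR3 lower in 3, and CRELD2, DERL1 and ATF6 were called in none. Of all 9384 genes tested in the 4 lines, 8.63% were higher in 3 or 4, 14.4% lower in 3 or 4, and 14.9% called in none, and 3 of 35 members stand against each of these shares. HSPA5, CALR, CANX, SEL1L, EDEM1, CREB3L2, SSR1 and SEC23B were called higher in some sensitive line and lower in another, which is 8 of the 35 members tested in the 4 lines and 11.5% of all genes tested there. Of the 17 members higher in COLO 320DM and the 17 higher in ABC-1, 12 were shared (70.6% of each), where all genes called higher shared 44.7% and 27.1%. The 5 members lower in ABC-1 were all among the 7 lower in UO-31 (71.4% of those), where all genes called lower shared 40.1% of those of ABC-1 and 77.1% of those of UO-31. Across members, the log2 fold changes of COLO 320DM and ABC-1 had a Spearman correlation of 0.63 (35 genes; 0.42 over all genes tested in both), those of UO-31 and ABC-1 of 0.64 (0.65), and those of COLO 320DM and OVCAR-4 of 0.04 (36 genes; 0.21). The lines share no libraries, genes are not independent replicates, and these values are descriptions. All calls above are on the rescaled values. With the RPKM as deposited, EDEM2 was called higher in COLO 320DM only and P4HB in COLO 320DM and ABC-1 only. HSPA5, CALR, CANX and EDEM1 were then not called in opposite directions. COLO 320DM then had 12 members higher (7.7% of all genes) and ABC-1 7 (16.6%). P4HB, HERPUD1, EIF2AK3, CREB3L2 and SEC24D were in both. Overlaps over all genes were not taken on that scale.

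Fitted as 1 common effect over the 16 libraries of the sensitive lines, 8 members were higher and 5 lower of 35, against 21.9% and 28% of all genes. The count of higher members thus lies near the share in all genes, and that of lower members below it. HERPUD1 (log2 fold change 0.42 ± 0.07, SE), SEC24D (0.39 ± 0.09), DNAJB9 (0.28 ± 0.06), EIF2AK3 (0.28 ± 0.08), EDEM2 (0.23 ± 0.05), SYVN1 (0.21 ± 0.06), P4HB (0.20 ± 0.04) and OSTC (0.19 ± 0.04) were higher. SSR3 (-0.32 ± 0.05), SDF2L1 (-0.32 ± 0.08), DNAJB11 (-0.19 ± 0.05), MANF (-0.18 ± 0.06) and HYOU1 (-0.18 ± 0.06) were lower. Of these, DNAJB9, P4HB, HERPUD1, EDEM2, OSTC and SEC24D had a positive log2 fold change in all 4 lines and DNAJB11 and SSR3 a negative one. With the RPKM as deposited, 4 were higher and 8 lower, against 10.2% and 33.8% of all genes. With quantile normalization (limma adjusted p = 0.146 and 0.194) or a term for the replicate number (0.0732 and 0.082), MANF and HYOU1 lost their calls. Both lost them without the UO-31 libraries too. They lost them also without UO-31 DMSO replicate 1 or 2, ABC-1 DMSO replicate 2 or ABC-1 G007-LK replicate 2. Both were also lost without the ABC-1 libraries, HYOU1 without any 1 library of ABC-1 or UO-31 (limma adjusted p up to 0.0668), and DNAJB11 without the UO-31 libraries (0.0575). DNAJB9 (limma adjusted p = 0.0645), SYVN1 (0.108), EIF2AK3 (0.104) and OSTC (0.122) lost their calls with the RPKM as deposited. EIF2AK3 lost it also without the COLO 320DM libraries (0.085) or those of ABC-1 (0.109), and SYVN1 without those of ABC-1 (0.13).

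The difference from RKO asks whether a line's response departed from that of the insensitive line. In COLO 320DM, 15 members had a higher and 2 a lower log2 fold change than in RKO of 36 tested, against 12.7% and 16.7% of all genes. In ABC-1 there were 14 and 6 of 35 (22.9% and 30% of all genes), in UO-31 0 and 7 of 35 (6.49% and 14.5%), and in OVCAR-4 3 and 5 of 35 (13.8% and 16.5%). The count of lower members in UO-31 and both counts in OVCAR-4 lie near these shares. The widest differences were SEC24D in COLO 320DM (0.70 ± 0.08, SE; limma adjusted p = 0.00059), SDF2L1 in UO-31 (-0.67 ± 0.12; limma adjusted p = 0.00633), CREB3L2 in ABC-1 (0.63 ± 0.07; limma adjusted p = 1.43e-05) and EDEM1 in OVCAR-4 (-0.43 ± 0.06; limma adjusted p = 0.000463). SSR3, lower in RKO too, was lower by more in UO-31 (-0.41 ± 0.07; limma adjusted p = 0.00491) and ABC-1 (-0.27 ± 0.05; limma adjusted p = 0.00084), in UO-31 not with the RPKM as deposited (limma adjusted p = 0.106). The 4 comparisons share the RKO libraries. With the RPKM as deposited the counts were 8 and 2 in COLO 320DM (4.16% and 6.85% of all genes), 6 and 7 in ABC-1 (11.4% and 37.4% of all genes), 0 and 2 in UO-31 (1.01% and 4.2%) and 0 and 13 in OVCAR-4 (6.8% and 30.6%). With 1 library left out, the members' median difference from RKO lay between 0.12 and 0.15 in COLO 320DM and between -0.16 and -0.10 in UO-31. The counts moved too, but the share of all genes called was not taken in those fits.

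Of the members whose promoters hold ERSE or ERSE-II, calls ran both ways in COLO 320DM, ABC-1 and OVCAR-4 and were all lower in UO-31. In COLO 320DM, 2 of the 9 were higher and 2 lower (median log2 fold change 0.13), against 14 and 0 of the 24 members without an element (0.26). ABC-1 had 3 higher and 2 lower of 9 (0.06), against 12 and 3 of 23 (0.14). UO-31 had 3 lower of 9 (-0.24), against 4 of 23 (-0.09). In OVCAR-4, 2 were higher and 3 lower of 9 (0.02), against 5 and 7 of 23 (0). Of all genes, 18.4% were higher and 20.2% lower in COLO 320DM, and 31.4% and 32.4% in ABC-1. The shares were 14.6% and 15.5% in UO-31 and 24.1% and 23% in OVCAR-4. The counts of the 9 genes lie near these shares in COLO 320DM, ABC-1 and OVCAR-4. The genes of the printed promoters spread widely within a line: in ABC-1 HERPUD1 was at 0.61 and XBP1 at 0.38, while HYOU1 was at -0.41 and SDF2L1 at -0.43.

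The lines also differ in these genes without treatment. The RPKM sum of an OVCAR-4 library was 863076 to 909187, against 367196 to 523395 in the other lines, so that 19 of the 37 members had their highest RPKM in OVCAR-4 DMSO cells, as did 52.55% of the 14199 genes compared. Levels across lines are therefore given as TPM, the RPKM divided by the library's RPKM sum so that every library has the same total, as means of 2 DMSO libraries, with no test. On that scale ABC-1 was highest for 10 members, UO-31 for 9, RKO for 7, COLO 320DM for 6 and OVCAR-4 for 5, where of all genes compared 15.97% were highest in ABC-1, 18.97% in UO-31, 18.58% in RKO, 27.75% in COLO 320DM and 18.73% in OVCAR-4. The 37 genes together made up 1.215% of the RPKM sum with G007-LK and 1.163% with DMSO in ABC-1, while COLO 320DM had 0.9973% and 0.9129%, RKO 0.9639% and 0.9659%, UO-31 0.9735% and 1.083%, and OVCAR-4 0.9543% and 0.9744%.

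HSPA5 was highest in RKO (997 TPM), followed by UO-31 (749) and COLO 320DM (729), and lower in ABC-1 (552) and OVCAR-4 (363), so that this share was highest in the insensitive line. XBP1 was lowest in RKO, with 247 in COLO 320DM, 212 in ABC-1, 169 in OVCAR-4, 85.8 in UO-31 and 70.2 there. DNAJB11 was 505 in ABC-1 and at most 201 elsewhere, and OSTC 427 in COLO 320DM and at most 216 elsewhere. ERN1 was 9.07 in COLO 320DM, 4.30 in RKO and at most 1.54 in the other lines. SYVN1 and SEC23B varied least, with the highest line at 1.37 and 1.83 times the lowest.

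**Figure D5:**
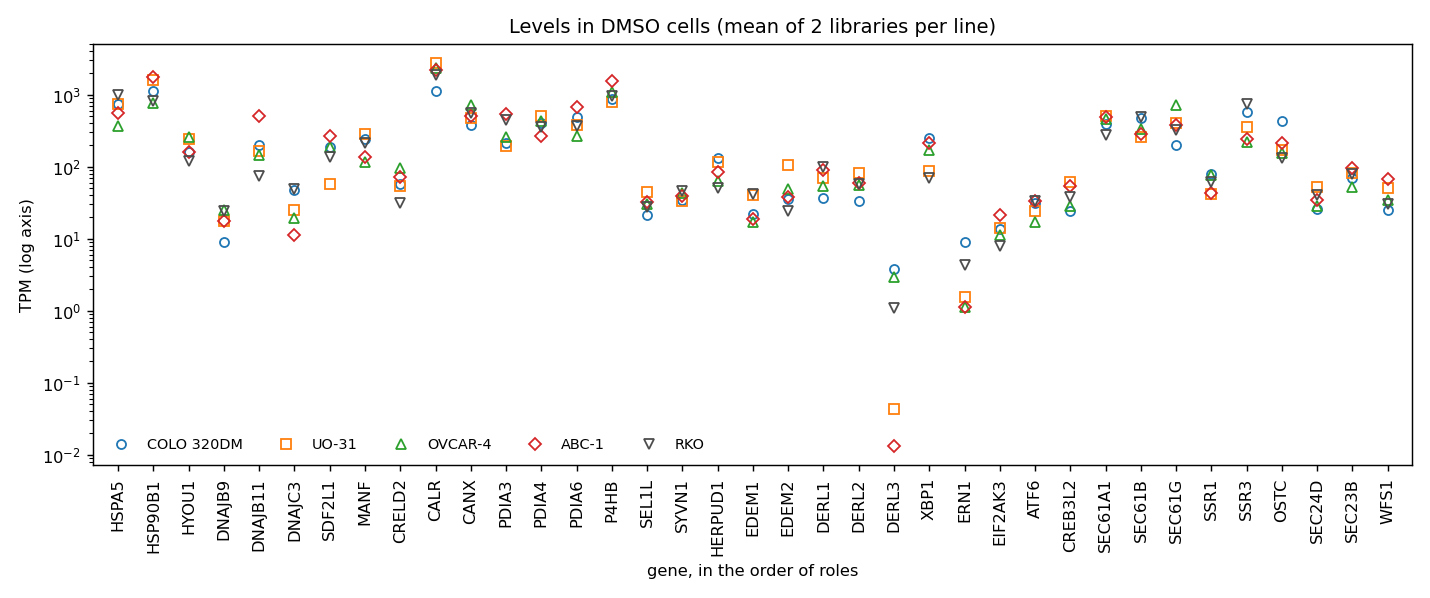
Levels of the 37 genes in DMSO cells, as the mean TPM of 2 libraries per line (log axis), with a symbol for each line. Most genes lie within a few-fold over the 5 lines, DERL3 and ERN1 being the widest, and CALR is the highest gene in UO-31 (2729) and in every other line but COLO 320DM.

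Other genes of the pathway were taken from 6 lists of 105 genes in all (folding, ERAD, the PERK branch, sensor-proximal factors, the translocon and vesicle transport). Of those tested, COLO 320DM had 36 higher and 6 lower of 101, ABC-1 44 and 14 of 101, OVCAR-4 28 and 17 of 100, UO-31 5 and 15 of 103, and RKO 2 and 0 of 99, with median log2 fold changes of 0.13, 0.10, 0.02, -0.03 and 0. With the RPKM as deposited the counts were 22 and 3, 21 and 29, 12 and 47, 2 and 4, and 1 and 0 in the same order. The shares of all genes called higher and lower were 18.4% and 20.2% in COLO 320DM, 31.4% and 32.4% for ABC-1, 24.1% and 23% for OVCAR-4, 14.6% and 15.5% for UO-31, and 1.65% and 1.06% for RKO, and with the RPKM as deposited 7.7% and 11.6%, 16.6% and 41.2%, 12.6% and 39%, 4.79% and 8.63%, and 1.36% and 2.75%. The OVCAR-4 counts lie near these shares on both scales. After rescaling, the UO-31 count of lower genes also lies near the share in all genes. In COLO 320DM 10 of the 12 genes listed for the PERK branch were higher and 1 lower (median log2 fold change 1.29), and 9 and 1 with the RPKM as deposited. In UO-31, 1 was higher and 3 lower of the 12 (-0.18). The activity of PERK was not measured, and whether PERK or another input moved these genes was not tested. In ABC-1 18 of the 20 genes of COPII and COPI transport were higher and 0 lower (0.32), 10 and 1 with the RPKM as deposited.

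By the size of the common effect over the sensitive lines, DDIT3 and CHAC1 led the list named for the PERK branch. DDIT3, the factor CHOP, stood at 57.8 and 62.03 RPKM with G007-LK, against 10.3 and 9.78 RPKM with DMSO in COLO 320DM (log2 fold change 2.51 ± 0.07 (SE), limma adjusted p = 3.03e-07), and was higher in OVCAR-4 and ABC-1 too (0.48 and 0.43). CHAC1, an enzyme that breaks down glutathione, stood at 11.2 and 12.7 RPKM with G007-LK, against 3.75 and 3.81 RPKM with DMSO in COLO 320DM (log2 fold change 1.54 ± 0.08 (SE), limma adjusted p = 7.03e-06). Its log2 fold changes in OVCAR-4 and ABC-1 were 0.46 and 0.31, both called. Both genes thus had their widest log2 fold change in COLO 320DM, and neither was called in UO-31 or RKO. By the common effect, 4 of the 11 genes tested in this list were higher and 1 lower, against 21.9% and 28% of all genes. The lower one, EIF2S1, was next in size (-0.51 ± 0.05, SE, limma adjusted p = 1.64e-06). ATF4 was not called (-0.04, limma adjusted p = 0.671). Of the ERAD list, OS9, a lectin that delivers glycoproteins to SEL1L, was higher in all 4 sensitive lines (0.25 to 0.47), and UBE2G2, a ubiquitin-conjugating enzyme, lower in all 4 (-0.43 to -0.32). ATF6B, a relative of ATF6, was higher in all 4 (0.23 to 0.50). TRAF2, an adaptor of IRE1, was lower in COLO 320DM, UO-31 and ABC-1 (-0.42, -0.44 and -0.59).

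KDELR3, a receptor that returns chaperones from the Golgi, stood at 16.04 and 16.5 RPKM with G007-LK, against 9.69 and 9.36 RPKM with DMSO in ABC-1 (log2 fold change 0.74 ± 0.06 (SE), limma adjusted p = 2.23e-07), and was higher in COLO 320DM and OVCAR-4 as well (0.38 and 0.14). COPA, a subunit of the COPI coat, stood at 63.4 and 61.4 RPKM with G007-LK, against 39.1 and 42.5 RPKM with DMSO in ABC-1 (log2 fold change 0.61 ± 0.06 (SE), limma adjusted p = 7.72e-07), and was higher in COLO 320DM (0.42). FKBP2, a prolyl isomerase, was higher in COLO 320DM, ABC-1 and OVCAR-4 (0.29, 0.26 and 0.34), and TMX1, a membrane thioredoxin, lower in OVCAR-4 and ABC-1 (-0.34 and -0.38). SSR2, the beta subunit beside SSR1 and SSR3, was higher in COLO 320DM, ABC-1 and OVCAR-4 (0.44, 0.29 and 0.16), so that the subunits of this complex did not move together, and SRPRB, a subunit of the receptor for the signal recognition particle, was lower in UO-31 and ABC-1 (-0.41 and -0.23). With the RPKM as deposited the calls were lost for ATF6B in COLO 320DM and UO-31, OS9 in COLO 320DM, UBE2G2 and TRAF2 in UO-31, CHAC1 in ABC-1, KDELR3 in COLO 320DM and OVCAR-4, FKBP2 in COLO 320DM and ABC-1 and SSR2 in OVCAR-4. In RKO none of these 12 genes was called on either scale.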

How the data were processed

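From poly(A) RNA of 20 libraries the authors deposited RPKM per gene, made with SOAPaligner/SOAP2 on the hg19 gene set with at most 2 mismatches (versions: not given in the sources used here). No counts were used, so depth and counting error are unknown and the number of replicates limits the precision. Values of entries with the same symbol (371 symbols) were joined, an empty value was read as 0, and 8 entries without a symbol (at most 0.001343% of a library's RPKM) were left out. Within each line, libraries were rescaled by the median ratio, genes averaging 1 RPKM or more were kept, and log2(RPKM + 0.5) was tested with limma 3.58.1 (trend and robust, R 4.3.3), G007-LK against DMSO, with Benjamini-Hochberg adjustment over all genes kept. The common effect used the 16 sensitive-line libraries with line as a term, and the difference from RKO as an interaction over 8 libraries. The fit was tested on simulated data. Genes given by library were HSPA5, HSP90B1, CALR, XBP1, ERN1, EIF2AK3 and ATF6 in each line, the 6 called members of widest log2 fold change per line and, of each other pathway list, the 2 called genes of widest common effect; P4HB and DERL3, and further lines of SDF2L1 (COLO 320DM) and SSR3 (COLO 320DM and ABC-1), were added after their values were seen. Members and lists were chosen with earlier results of these data known. Alternatives were other pseudocounts, filters, scalings, variance models, a replicate block, other samples in the fit, the NOISeq rule and leaving out each library. Promoters came from the RefSeq table of GRCh38.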

Additional observations from a re-analysis of the deposited data

Results flagged for a closer look

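In 26 instances, over 18 members, the log2 fold change of a named member in a sensitive line differed from that in RKO by the test of the difference itself (limma interaction, adjusted over all genes). In each sensitive line, 6 of the named members were chosen for the widest log2 fold change among its called members. The choice therefore favors a difference from RKO, and the count of 26 is no test. Of all genes, 12.7% were called with a higher and 16.7% with a lower log2 fold change than in RKO for COLO 320DM. For ABC-1 the shares were 22.9% and 30%, for UO-31 6.49% and 14.5%, and for OVCAR-4 13.8% and 16.5%. In COLO 320DM the difference was 0.59 for DNAJB9, 0.42 for SEL1L, 0.63 for HERPUD1, 0.45 for ERN1, 0.41 for EIF2AK3, 0.48 for CREB3L2 and 0.70 for SEC24D, and -0.28 for CALR. SEL1L (limma adjusted p = 0.161), ERN1 (0.108), EIF2AK3 (0.136) and CREB3L2 (0.106) lost these calls with the RPKM as deposited. SEL1L lost it also in 5 of the 8 fits that each left out 1 library, ERN1 and EIF2AK3 in 3 and CALR in 2 (up to 0.0795), and with the replicate block CALR (0.0562), SEL1L (0.0546) and ERN1 (0.0528) lost it. In ABC-1 it was 0.15 for HSPA5, 0.44 for SYVN1, 0.51 for HERPUD1, 0.37 for XBP1, 0.43 for EIF2AK3, 0.63 for CREB3L2 and 0.55 for SEC24D, and -0.54 for SDF2L1. HSPA5 lost this call with the RPKM as deposited (0.03, limma adjusted p = 0.754), with the replicate block (0.0828), without trend or robust estimation (0.0504) and without any 1 RKO library (0.0503 to 0.0828), and EIF2AK3 with the RPKM as deposited (0.0607). In UO-31 every such difference was negative, at -0.36 for HSPA5, -0.38 for HYOU1, -0.40 for DNAJB11, -0.67 for SDF2L1, -0.50 for MANF and -0.41 for SSR3. The calls of HSPA5 (limma adjusted p = 0.0734), HYOU1 (0.141), DNAJB11 (0.0899) and SSR3 (0.106) were lost with the RPKM as deposited, and HSPA5 lost its call also without UO-31 DMSO replicate 1 or any 1 RKO library (up to 0.0749) and MANF without RKO DMSO replicate 1 or RKO G007-LK replicate 2 (up to 0.0511). In OVCAR-4 it was -0.26 for SEL1L, -0.43 for EDEM1, -0.29 for CREB3L2 and -0.15 for SEC23B. SEC23B lost its call in 7 of the 8 fits that each left out 1 library (limma adjusted p up to 0.127), with the replicate block (0.0565) and without trend or robust estimation (0.0596). The medium differs between RKO and each of these lines except ABC-1, and its part in the differences was not tested. Groups of 2 libraries are too small for a search for outlying samples.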

How the results depend on the processing

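Other pseudocounts changed no count of members by more than 1.5 times. With the RPKM as deposited, OVCAR-4 had 1 member higher, ABC-1 7 higher and 9 lower, and the sensitive lines together 4 higher and 8 lower, and HSPA5 in ABC-1 had a log2 fold change of -0.02. Against RKO on that scale, 8 were higher in COLO 320DM, 2 lower in UO-31, 0 higher and 13 lower in OVCAR-4, and 6 higher in ABC-1. Quantile normalization left 2 higher in OVCAR-4 and, against RKO, 1 lower in COLO 320DM and 1 higher in OVCAR-4. limma without trend or robust estimation gave 2 higher and 6 lower in OVCAR-4, 0 and 0 in RKO and, against RKO, 1 lower in COLO 320DM and 1 higher in OVCAR-4. Without a filter RKO had 0 and 0, and COLO 320DM against RKO 1 lower. A single fit over 20 libraries gave 18 lower in UO-31, 2 higher in OVCAR-4, and for RKO 0 and 0, and the NOISeq rule 2 higher and 4 lower in OVCAR-4. Without the UO-31 libraries, 2 members were lower over the sensitive lines. Shares of all genes called were taken for the main fit and the RPKM as deposited only. The other counts thus cannot be set against all genes, and the cause of these changes was not tested.

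Replicate numbers are shared by the groups, but the replicate differences of the treated and control libraries correlated at most at 0.05 within a line, so the numbers were not taken as pairs. With the replicate block, COLO 320DM had 16 members higher and 2 lower, ABC-1 14 and 5, UO-31 0 and 8, OVCAR-4 8 and 9, RKO 1 and 1, and the sensitive lines together 8 and 3. Against RKO, the block gave COLO 320DM 10 and 0, ABC-1 11 and 4, UO-31 0 and 6, and OVCAR-4 3 and 4. A crossed block, chosen after seeing correlations of -0.25 in COLO 320DM and -0.26 in ABC-1, gave 21 and 3 and 19 and 7. With neither block was the share of all genes called taken.

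With each library left out in turn, the range of members higher and then of members lower was for COLO 320DM 11 to 19 and 0 to 4, for ABC-1 14 to 16 and 4 to 5, for UO-31 0 to 5 and 2 to 17, for OVCAR-4 4 to 10 and 6 to 10, for RKO 0 to 0 and 0 to 1 and for the sensitive lines together 8 to 9 and 3 to 5. Against RKO it was for COLO 320DM 10 to 18 and 0 to 2, for ABC-1 10 to 15 and 4 to 6, for UO-31 0 to 3 and 4 to 16 and for OVCAR-4 2 to 4 and 4 to 7. Where 1 library of a group is left, it is assumed to vary like the others.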
